A study of Mus musculus with 2 samples.

Results

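The genes described here encode the digestive enzymes and nutrient transporters of the intestinal brush border, the carpet of microvilli on the apical face of absorptive cells. They are the hydrolase genes Sis, Lct, Treh, Anpep, Mep1a and Alpi, the transporter genes Slc5a1, Slc2a2 and Slc15a1, and Vil1, the gene of the microvillus protein villin. They were chosen by name, with earlier results of these data known, and each was read from the array row annotated to that symbol alone. All 10 were found, out of 30704 genes with such a row, and each had 1 row.

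Levels were measured in intestinal stem cells sorted from the small intestine of 8-week-old mice, 1 sample of circPan3-/-;Lgr5GFP-CreERT2 cells and 1 of circPan3+/+;Lgr5GFP-CreERT2 cells. circPan3 is a circle of RNA made from the gene Pan3, and the way it was deleted is not stated in the labels. Both genotypes carried the Lgr5GFP-CreERT2 allele, which makes cells with an active Lgr5 gene, a stem cell receptor gene, fluoresce green, and the fluorescent cells were sorted from crypts. Total RNA of each sample was hybridised to 1 Affymetrix Clariom D mouse array. The labels do not say whether a sample pooled several mice. There is thus 1 array for each genotype and no replicate spread, so differences are given with no error and no p-value and describe these 2 arrays rather than the genotypes.

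Brush border hydrolases split sugars, peptides and phosphate esters at the cell surface, and transporters in the same membrane take up the products. In the mouse small intestine the genes of these proteins are switched on as cells leave the crypt and mature on the villus, and their transcripts are widely used as signs of absorptive differentiation. Stem cells at the crypt base are not the cells that digest. These signals come from cells sorted as stem cells, in which some absorptive transcripts were measured. The share of stem cells in each sample was not measured, and Lgr5 itself differed between the arrays, as given below. In RNA of a bulk sample, fewer cells of a type and less RNA per cell cannot be told apart.

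The transcription factors CDX2, HNF1, HNF4 and GATA4 are known to act on many absorptive genes, and short motifs of these families were looked for in the 250 bases before the RefSeq start of each gene (build GRCm38.p6). The windows of 4 genes are printed, chosen with their values known, and a link between motifs and differences was not tested. Alpi and Slc15a1 were the lowest of the 10 on the circPan3-/- array relative to the circPan3+/+ array, whereas Sis differed by 0.03 as deposited. Lct, whose signal was too weak for a fold, is shown beside Sis because the promoters of both are textbook examples of intestinal control. All 4 genes lie on the minus strand, and the windows are chr1:87101607-87101856 for Alpi, chr14:121505255-121505504 for Slc15a1, chr3:72967864-72968113 for Sis and chr1:128328319-128328568 for Lct. Each is written 5′ to 3′ on the strand of its gene and ends at the base before the start, and capitals mark the motif matches.
Alpi: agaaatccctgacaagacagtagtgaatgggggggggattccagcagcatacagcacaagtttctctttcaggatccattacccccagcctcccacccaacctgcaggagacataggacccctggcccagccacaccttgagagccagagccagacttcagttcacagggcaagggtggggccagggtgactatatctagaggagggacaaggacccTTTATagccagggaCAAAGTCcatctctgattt
Slc15a1: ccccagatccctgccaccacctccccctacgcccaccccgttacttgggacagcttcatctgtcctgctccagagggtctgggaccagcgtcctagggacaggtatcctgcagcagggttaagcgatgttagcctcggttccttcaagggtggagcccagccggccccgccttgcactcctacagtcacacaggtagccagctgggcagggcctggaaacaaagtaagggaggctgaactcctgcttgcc
Sis: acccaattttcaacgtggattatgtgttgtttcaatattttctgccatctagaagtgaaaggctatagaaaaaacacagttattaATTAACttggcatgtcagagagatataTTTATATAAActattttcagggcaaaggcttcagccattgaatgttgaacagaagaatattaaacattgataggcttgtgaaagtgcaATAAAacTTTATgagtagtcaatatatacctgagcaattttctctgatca
Lct: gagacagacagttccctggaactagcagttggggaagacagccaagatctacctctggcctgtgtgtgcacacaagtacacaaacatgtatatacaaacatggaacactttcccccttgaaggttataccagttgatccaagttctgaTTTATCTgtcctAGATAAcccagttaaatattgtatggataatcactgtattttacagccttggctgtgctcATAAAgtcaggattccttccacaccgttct

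The motifs searched, on both strands, were GTTAAT for HNF1 (an arm of its palindrome), TTTAT for CDX factors, AGATAA for GATA factors and CAAAGTC for HNF4. The window of Alpi held 1 CDX match that begins 33 bases before the start, where a TATA box would also lie, and 1 HNF4 match that begins 19 bases before it. The window of Slc15a1 held no match. Sis held 1 HNF1 match at 165 bases and 4 CDX matches between 138 and 43 bases before the start. Lct held 2 CDX and 2 GATA matches, and a CDX and a GATA match overlap at 102 and 101 bases. Of the other genes, Treh held 2 HNF4 matches and Anpep, Mep1a, Slc5a1, Slc2a2 and Vil1 held none, so 4 of the 10 windows had at least 1 match. The CDX letters stood in 3 of the 10 windows, against 37.3% of 32851 RefSeq windows of the same length. GATA letters stood in 1 of the 10, against 9.99%, HNF1 letters in 1, against 6.43%, and HNF4 letters in 2, against 3.84%. The share of all windows with any of these motifs was not counted, and it cannot be under the 37.3% of CDX. These matches are letters in a window and not binding sites, and the start used in the intestine may differ from the RefSeq start.

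All levels are deposited RMA signals, taken to be on a log2 scale from their range, and all differences are circPan3-/- minus circPan3+/+. Signals of different genes come from different probes and are not compared with each other. Over the 13819 named protein-coding genes past a filter on low signal (a mean over both arrays of 2.53 or more, which is the median row), the median difference was 0.36, so a gene at 0 was below the middle of the genes. Of these genes, 1343 were higher by 2-fold or more on the circPan3-/- array and 391 were lower by as much. After this median was subtracted the counts were 538 and 696. As a limit for weak signals, the 95th percentile of the 5222 negative control rows was 5.56 on the circPan3-/- array, against 5.06 on the circPan3+/+ array, and 71.6% of the named genes past the filter were under both limits. Where the dimmer of the 2 values was under its limit, the fold is a bound, and where both were, no fold is given.

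All 10 brush border genes passed the filter. Of them, 2 were at least 2-fold lower on the circPan3-/- array, against 2.83% of the named genes, and 0 were at least 2-fold higher, against 9.72%. Their median difference was -0.09, against 0.36 over the named genes, and they ran from -1.26 for Alpi to 0.32 for Vil1. All 10 lay below the median of the named genes, as 50% of the named genes do by construction, and 5 of the 10 lay below 0, against 21.6% of the named genes. The 10 genes differed in how well they were measured: 4 were under the control limits on both arrays, 5 were over them on both, and Slc15a1 was over its limit on the circPan3+/+ array alone. With bounds in place of folds, Alpi was the only one of the 10 still at least 2-fold lower, against 0.557% of the named genes lower and 3.57% higher by that rule. Genes under both limits cannot be called by it. They were 71.6% of the named genes but 4 of the 10, so these shares are not like for like. The 10 genes were chosen with earlier results of these data known, so no share set beside them is an independent yardstick.

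**Figure D1:**
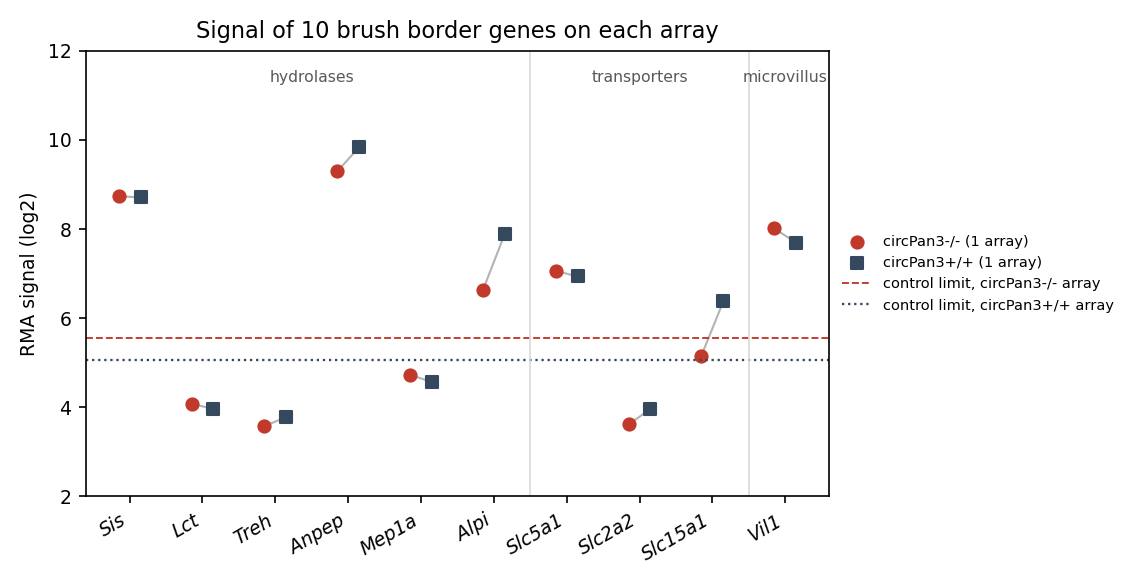
Deposited RMA signal (log2, vertical axis) of each of the 10 brush border genes on the circPan3-/- array (circles, left of each pair) and the circPan3+/+ array (squares, right). Horizontal lines are the 95th percentiles of the negative control rows, 5.56 on the circPan3-/- array (dashed) and 5.06 on the circPan3+/+ array (dotted); Alpi and Slc15a1 have the steepest connecting lines, and Lct, Treh, Mep1a and Slc2a2 lie under both limits.

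Among the hydrolases, the gene furthest below its circPan3+/+ level was Alpi, which encodes intestinal alkaline phosphatase, an enzyme that removes phosphate from lipopolysaccharide and nucleotides at the brush border. Alpi had a signal of 6.63 on the circPan3-/- array, against 7.89 on the circPan3+/+ array, both over the control limits. The difference was -1.26, or 2.39-fold lower, and 1.88% of the named genes had a lower difference. Its relatives Akp3 and Alppl2 have their own rows, but the family is closely similar in sequence, and probes may not tell every member apart. Akp3, which encodes another intestinal phosphatase of the mouse, had 3.96 on the circPan3-/- array, against 4.72 on the circPan3+/+ array, both under the limits. Alppl2 had 3.09 on the circPan3-/- array, against 2.88 on the circPan3+/+ array, also under the limits and in the other direction.

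Anpep encodes aminopeptidase N, which trims amino acids from the ends of peptides. Anpep had the next lowest difference among the hydrolases, with a signal of 9.29 on the circPan3-/- array, against 9.84 on the circPan3+/+ array. The difference was -0.54, or 1.46-fold lower, short of the 2-fold rule, and 6.15% of the named genes were lower. After a loess correction for mean level, which takes away the larger shift of bright genes, Anpep stood at -1.15 and was past 2-fold. Anpep is also known as CD13, a surface protein of myeloid cells, and myeloid marker genes were lower on the same array, as given below. The part of myeloid cells in the signal of Anpep was not tested.

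Sis encodes sucrase-isomaltase, which splits sucrose and the branch points of starch fragments. Sis had a signal of 8.74 on the circPan3-/- array, against 8.71 on the circPan3+/+ array, a difference of 0.03. Both values were well over the control limits, so in these 2 samples a bright absorptive transcript differed by 1.02-fold as deposited. Set against the named genes, Sis was at -0.33 after centring and -0.57 after loess, under the 2-fold rule in each.

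The remaining hydrolases gave weak signals. Lct, the gene of lactase, which digests milk sugar and is highest in the suckling mouse, had 4.08 on the circPan3-/- array, against 3.96 on the circPan3+/+ array. Treh, the gene of trehalase, which splits the sugar trehalose, had 3.58 on the circPan3-/- array, against 3.78 on the circPan3+/+ array. Mep1a, the gene of the alpha subunit of the metalloprotease meprin, had 4.73 on the circPan3-/- array, against 4.56 on the circPan3+/+ array. All 6 values lay within the range of the negative controls, so the differences of 0.12, -0.20 and 0.17 carry no fold. On the circPan3+/+ array the value of Lct stood in 211 rows of the table and that of Mep1a in 110, so those values do not resolve the gene from many others.

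The transporters differed from each other. Slc15a1 encodes PEPT1, which takes up di- and tripeptides together with protons. Slc15a1 had a signal of 5.16 on the circPan3-/- array, under its control limit, and 6.38 on the circPan3+/+ array, over it. The difference was -1.21 as deposited, with 2.03% of the named genes lower, and as a bound the gene was at least 1.77-fold lower. Slc9a3 encodes the sodium-proton exchanger NHE3, which is known to sustain the proton gradient that PEPT1 uses. Its values were 5.27 on the circPan3-/- array, against 3.74 on the circPan3+/+ array, both under the limits, so its difference of 1.53 carries no fold.

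Slc5a1 encodes SGLT1, which takes up glucose and galactose with sodium at the brush border. Slc5a1 had a signal of 7.06 on the circPan3-/- array, against 6.94 on the circPan3+/+ array, a difference of 0.13 or 1.09-fold, with both values over the limits. Slc2a2 encodes GLUT2, the transporter that lets these sugars leave the cell on its basolateral side. Slc2a2 had 3.62 on the circPan3-/- array, against 3.96 on the circPan3+/+ array, both under the limits, a difference of -0.35 with no fold. On the circPan3+/+ array Slc2a2 and Lct held exactly the same value as each other, 1 of many repeated values in that column.

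Vil1 encodes villin, which bundles and severs the actin of the microvillus core and is used as a marker of the whole intestinal epithelium, crypt cells included. Vil1 had a signal of 8.01 on the circPan3-/- array, against 7.69 on the circPan3+/+ array. Its difference of 0.32, or 1.25-fold higher, was close to the median of the named genes, and 47.2% of them were lower. Relative to Vil1, a reading that no shift common to all genes of an array can change, Alpi was at -1.58 and Slc15a1 at -1.54 as deposited. Anpep was at -0.87, Sis at -0.30 and Slc5a1 at -0.20 on the same reading, which was added after seeing the data. These are unequal differences within the 2 arrays, and none of the genes is thereby shown to be unchanged.

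**Figure D2:**
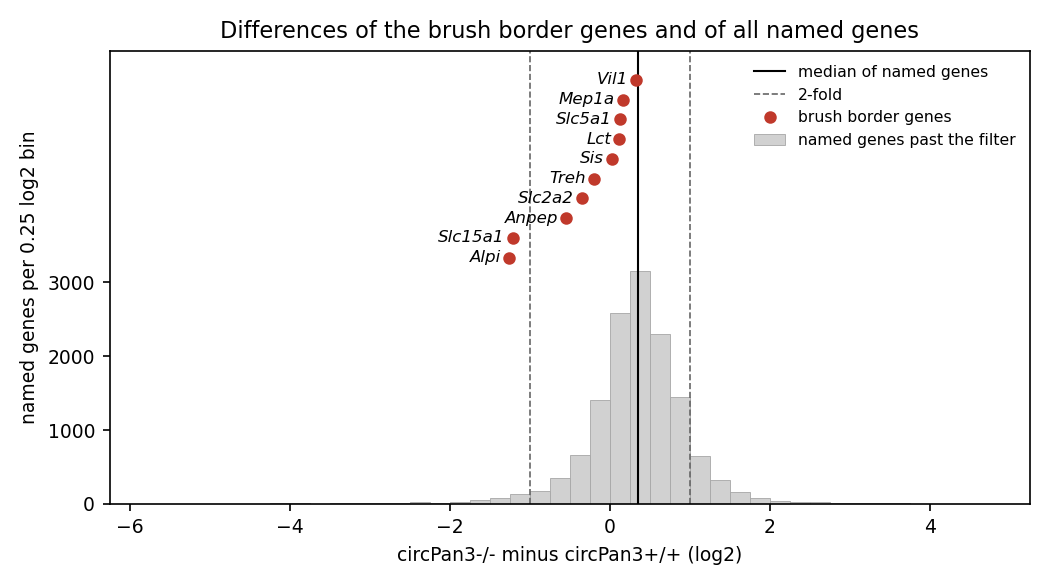
Differences (circPan3-/- minus circPan3+/+, log2, horizontal axis) of the 10 brush border genes (points, with names) above the number of named genes past the filter in each bin of 0.25 (bars, vertical axis). The solid line is the median of the named genes, 0.36, and the dashed lines are 2-fold; all 10 points lie left of the solid line, and Alpi and Slc15a1 lie beyond the lower 2-fold line.

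Of 16 other brush border hydrolases measured, 14 passed the filter, and 0 of them were at least 2-fold higher or lower as deposited, with a median of 0.09. After centring or quantile normalization 2 were lower, and after loess 4 were, with a median of -0.33. Mgam encodes maltase-glucoamylase, the partner of sucrase-isomaltase in starch digestion, and had the highest difference of these, with 9.29 on the circPan3-/- array, against 8.43 on the circPan3+/+ array. The difference of Mgam was 0.86, or 1.82-fold higher. The lowest were Akp3 at -0.76 and Mme, the gene of the peptidase neprilysin, at -0.75, both between values under the limits. Mep1b, the gene of the meprin beta subunit and chosen after its values were seen, had 7.4 on the circPan3-/- array, against 7.88 on the circPan3+/+ array in its brighter row, a difference of -0.48. Its second row had 4.18 on the circPan3-/- array, against 3.37 on the circPan3+/+ array, which is a gap of 0.81 with both values under the limits, so the 2 rows of Mep1b disagree in direction.

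Of 17 other sugar, amino acid and peptide transporter genes, 2 were higher by at least 2-fold and 1 was lower by as much, with a median of 0.06. Slc1a1, the gene of the glutamate transporter EAAC1, had 6.09 on the circPan3-/- array, against 3.73 on the circPan3+/+ array, at least 2.04-fold higher. Slc7a8, which encodes a basolateral carrier of neutral amino acids, had 6.76 on the circPan3-/- array, against 5.54 on the circPan3+/+ array, or 2.33-fold higher. Slc6a19 encodes the main apical carrier of neutral amino acids, B0AT1, and stood lowest at -1.24, with 3.73 on the circPan3-/- array, against 4.97 on the circPan3+/+ array, both under the limits. Slc3a1, a subunit of the cystine carrier, had 6.44 on the circPan3-/- array, against 6.74 on the circPan3+/+ array.

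Of 16 genes of other apical uptake transporters, 15 passed the filter. Of these, 3 were at least 2-fold higher and 2 lower, against 9.72% and 2.83% of the named genes, and the median was 0.23. Slc10a2, which encodes the bile acid transporter of the ileum, had 3.46 on the circPan3-/- array, against 6.23 on the circPan3+/+ array, a difference of -2.77 and at least 1.60-fold lower. Slc26a3, a chloride-bicarbonate exchanger gene, had 5.96 on the circPan3-/- array, against 3.96 on the circPan3+/+ array, at least 1.86-fold higher. The nucleoside transporter gene Slc28a2 was at -1.01 between values under the limits. With bounds, 0 of the 15 were at least 2-fold apart in either direction, against 0.557% of the named genes lower and 3.57% higher. Of the 15, 10 were under both limits and could not be called by that rule.

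The list of other microvillus genes had a median of 0.51 as deposited, against 0.36 over the named genes. Of 21 genes measured, 5 were at least 2-fold higher and 1 lower, against 9.72% and 2.83% of the named genes. After loess 1 was higher and 1 lower with a median of -0.02. Myo6, the gene of a myosin that moves towards the base of the microvillus, had 7.14 on the circPan3-/- array, against 5.41 on the circPan3+/+ array, or 3.31-fold higher. Baiap2l2, which encodes a membrane-binding protein of the epithelium, had 6.68 on the circPan3-/- array, against 5.40 on the circPan3+/+ array, or 2.43-fold higher. Tmigd1, an adhesion molecule gene of mature enterocytes, had 5.06 on the circPan3-/- array, against 6.44 on the circPan3+/+ array, at least 1.85-fold lower. Pdzk1, a scaffold protein gene, was at -0.47 between values under the limits.

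**Figure D3:**
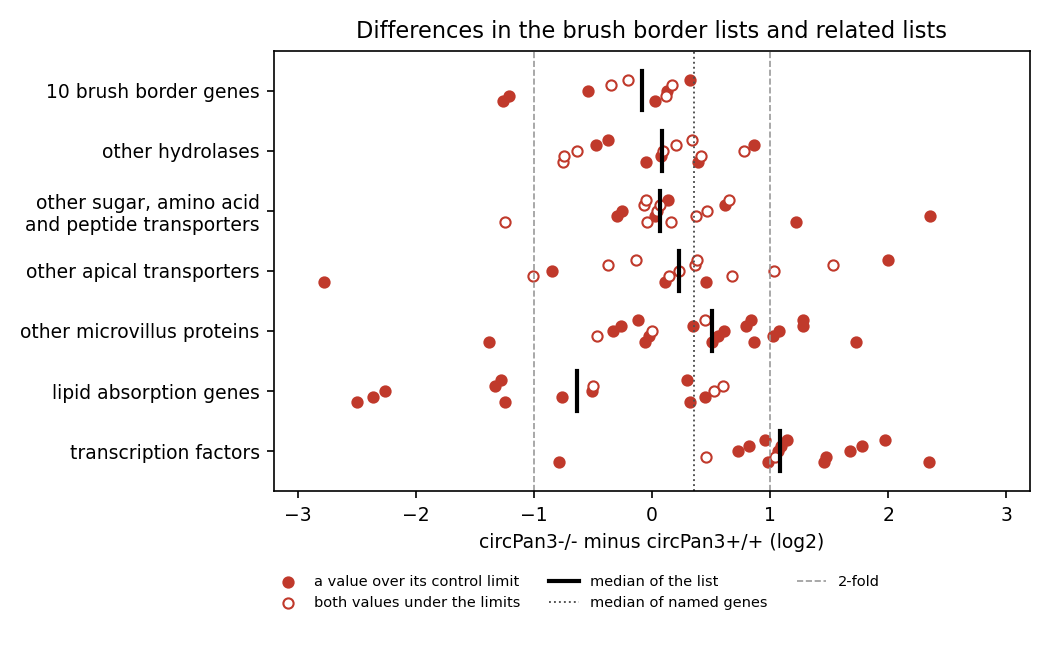
Differences (circPan3-/- minus circPan3+/+, log2, horizontal axis) of the 10 brush border genes (top row) and of 6 related lists, 1 point per gene past the filter, open where both values are under the control limits. Thick bars are list medians, from -0.63 for lipid absorption genes to 1.08 for transcription factors, and the dotted line is the median of the named genes; the vertical spread of points within a row has no meaning.

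Genes of lipid absorption, which belong to the same absorptive cells, are given for comparison. Of 14, 6 were at least 2-fold lower and 0 higher, against 2.83% and 9.72% of the named genes, with a median of -0.63. Apoa4, the gene of an apolipoprotein of chylomicrons, was lowest, with 6.05 on the circPan3-/- array, against 8.55 on the circPan3+/+ array, or 5.66-fold lower. Fabp1, a fatty acid binding protein gene, followed at -2.36, or at least 4.10-fold lower. Mogat2, an enzyme gene of triglyceride synthesis, was at 0.52 and the apolipoprotein gene Apoc3 at 0.60, both between values under the limits. The median of the brush border genes, -0.09, lay between that of the lipid list and that of the microvillus list, and no test of these differences can be had from 2 arrays.

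Transcription factor genes that act on absorptive genes were mostly higher on the circPan3-/- array. Of 16 measured, 10 were at least 2-fold higher and 0 lower, with a median of 1.08. After centring only 6 were higher and after loess only 4 were, with 1 lower in each. Of all named genes, the share at least 2-fold higher was 9.72% as deposited, 3.89% after centring and 3.38% after loess. The share at least 2-fold lower was 2.83%, 5.04% and 5.08% in the same order. Cdx2, which acts on the Sis promoter, had 6.62 on the circPan3-/- array, against 4.84 on the circPan3+/+ array, at least 2.95-fold higher. Its circPan3+/+ value, under the limit, stood in 143 rows, and that of Nr5a2, given below, in 510. Gata4, a factor of the proximal small intestine, had 5.64 on the circPan3-/- array, against 4.57 on the circPan3+/+ array, a difference of 1.07 with the lower value under its limit. Hnf4a had 7.37 on the circPan3-/- array, against 6.64 on the circPan3+/+ array, or 1.66-fold higher, under the 2-fold rule. Nr5a2, a nuclear receptor gene of the crypt, was at least 2.04-fold higher and Elf3, an epithelial ETS factor gene, 3.94-fold higher. Creb3l3, which encodes a factor of lipid metabolism, was the lowest at -0.79, or at least 1.45-fold lower, and Prdm1, which represses adult enterocyte genes in the suckling mouse, was at 0.46 between values under the limits. Whether the signals of these factors and of the brush border genes come from the same cells was not tested.

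Short lists for age, position along the gut and position on the villus were also read. Of 5 genes measured from a list of suckling and adult enterocyte genes, 0 were at least 2-fold apart, with a median of 0.46. Arg2, an arginase gene of adult enterocytes, was highest at 0.65 and the lysosomal gene Neu1 lowest at -0.16, between values under the limits. Of 8 genes of the proximal gut or the ileum, Gata4 was the 1 gene past 2-fold higher as deposited and Slc10a2 the 1 gene past 2-fold lower. With bounds, 0 of the 8 were at least 2-fold apart in either direction, against 0.557% of the named genes lower and 3.57% higher. Of the 8, 3 were under both limits and could not be called by that rule. Fabp6, the ileal bile acid binding protein gene, chosen after its values were seen, had 9.28 on the circPan3-/- array, against 9.39 on the circPan3+/+ array. Of 6 villus tip genes, 1 was at least 2-fold lower as deposited, Slc28a2, whose values are both under the limits, and 0 were higher. After centring or quantile normalization 2 were lower and after loess 3 were. Ada, an adenosine deaminase gene, was at -0.97, or at least 1.40-fold lower. In the other direction, Cdkn1a was at 0.69, or 1.61-fold higher, and Enpp3 at 0.78 between values under the limits. The median of the 6 was -0.16, with 3 of them below 0.

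Markers of the sorted cells and of other cells differed on the same arrays, and their counts are given as deposited and then after loess. Lgr5, the sorting gene, had 7.02 on the circPan3-/- array, against 10.91 on the circPan3+/+ array, and Olfm4, a further stem cell marker, had 10.28 on the circPan3-/- array, against 11.53 on the circPan3+/+ array, all over the limits. Of 8 enterocyte markers measured, 4 were at least 2-fold lower and 0 higher (7 and 0 after loess). All 8 also stand in lists above, 5 in the lipid list and the others among villus tip genes or other hydrolases. The 4 lower as deposited are all lipid genes already counted, so these markers are no separate reading. The summed linear signal of the 8 was 1712 on the circPan3-/- array, against 3061 on the circPan3+/+ array. Of 8 goblet cell markers, 8 were at least 2-fold higher (5 after loess), with sums of 4510 on the circPan3-/- array, against 1054 on the circPan3+/+ array. Of 5 Paneth cell markers, 5 were at least 2-fold higher (4 after loess), with sums of 6291 on the circPan3-/- array, against 1591 on the circPan3+/+ array. Of 10 myeloid markers, 9 were at least 2-fold lower, and as many after loess. With bounds 3 were, because all 9 had circPan3-/- values under the limit. Lyz2, which Paneth cells can also express, made up most of the summed signal of the myeloid list, 1613 on the circPan3-/- array, against 2215 on the circPan3+/+ array. Without it the sums were 154 on the circPan3-/- array, against 720 on the circPan3+/+ array. Enteroendocrine markers were at least 2-fold higher in 8 of 9, and in 4 after centring, after loess or with bounds. Tuft cell markers were past 2-fold in 3 of 6 before and after loess, but all 6 lie under the limits on both arrays and carry no fold. Stem cell markers were at least 2-fold higher in 5 of 9 (4 after loess, 3 with bounds), while Lgr5 and Olfm4 were the 2 stem cell markers at least 2-fold lower. Markers of T and NK cells were at least 2-fold lower in 3 of 9 (4 after loess), endothelial markers in 2 of 7 (4 after loess) and B and plasma cell markers in 0 of 6 (1 after loess). With bounds these counts were 1, 1 and 0. Mesenchymal markers were at least 2-fold lower in 3 of 7 and higher in 1 (3 and 0 after loess, 2 and 1 with bounds). The part of the mix of cells in the differences of the brush border genes was not tested.

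**Figure D4:**
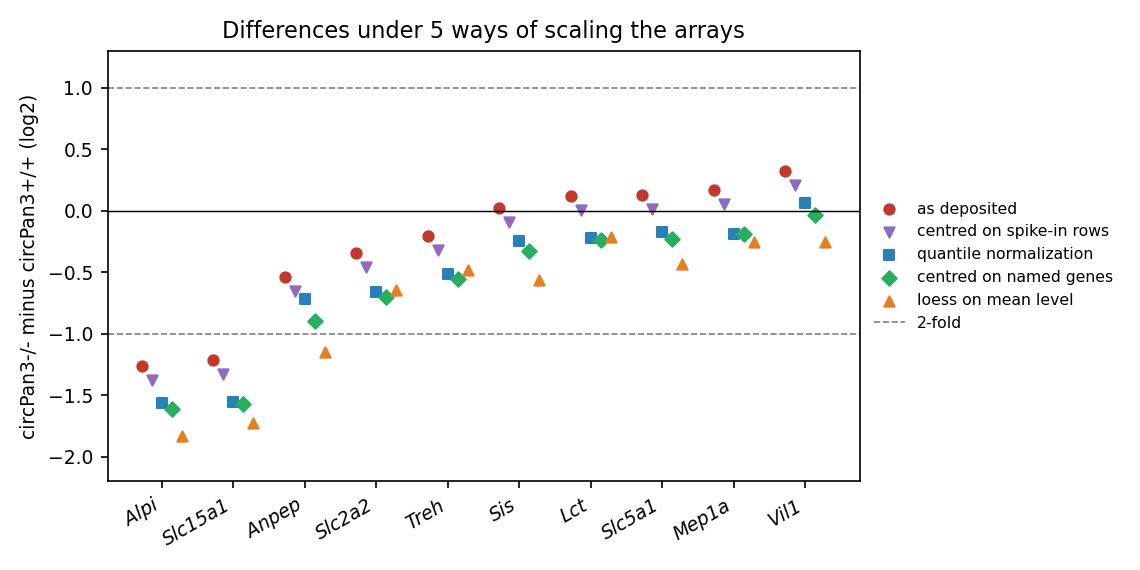
Differences (circPan3-/- minus circPan3+/+, log2, vertical axis) of the 10 brush border genes under 5 ways of scaling the arrays, 1 symbol each. Alpi and Slc15a1 lie below the lower dashed 2-fold line under all 5, Anpep does so after loess, and Sis, Lct, Slc5a1, Mep1a and Vil1 lie on both sides of 0.

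The scaling of the arrays set the sign of the small differences. Alpi ranged from -1.83 after loess to -1.26 as deposited, and Slc15a1 from -1.73 to -1.21, so these genes kept their direction under each scaling plotted, as did Anpep, Slc2a2 and Treh. The other 5 changed sign under at least 1 scaling: Sis, Lct, Slc5a1 and Mep1a were above 0 as deposited and below it after centring, loess or quantile normalization. After centring, 2 of the 10 genes were at least 2-fold lower, against 5.04% of the named genes, and 0 were higher, against 3.89%. After quantile normalization the counts were again 2 and 0, against 4.54% and 4.32%, and after loess they were 3 and 0, against 5.08% and 3.38%. Vil1 was at 0.06 after quantile normalization, -0.03 after centring and -0.25 after loess.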

How the data were processed

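The data are 1 table of 72688 rows and 2 columns, 1 array per genotype. Affymetrix Power Tools and RMA are named in the submitters' processing notes; RMA corrects background, normalizes and summarises probes into 1 value per transcript cluster. Versions, the genome build and the between-array step are not stated there. The values as deposited by the authors, from -0.18 to 13.07, are taken as log2 from their range. The column medians were 2.62 (circPan3-/-) and 2.51 (circPan3+/+), and 4.20% and 69.1% of rows in these columns repeated a value of another row, so whether both arrays were processed alike is not known. The number of arrays limits the precision.

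Rows were named from the platform annotation, updated through the RefSeq gene table (GRCm38.p6): 31261 rows had 1 symbol, 1489 had several and were not named, and 33206 transcript clusters had none. The brightest row stood for a gene that had more than 1. Named genes are protein-coding genes other than predicted models, 18332 in all, of which 13819 had a mean at or above 2.53. A gene was counted past a difference of 2-fold. No test was run, because there are no replicates. Genes outside the 10 were named when they were the 2 highest or 2 lowest of a list, or were Hnf4a, Cdx2, Gata4, Lgr5 or Olfm4; not every gene this rule gives is named, and Alppl2, Lyz2, Mep1b and Fabp6, and the myeloid sum without Lyz2, were added after their values were seen. The members and lists were chosen with earlier results of these data known. Promoter sequences are from RefSeq (GRCm38.p6), in which all 10 genes matched. Alternatives were centring, loess (statsmodels 0.14.6, span 0.3), quantile normalization, other filters, a mean of rows, a 1.5-fold threshold and bounds. Centring on 92 spike-in rows and centring on Vil1 were added after seeing the data. Whether spike-in RNA was added to these samples is not known here, so centring on those rows is not read as a calibration. The functions were tested on simulated data with Python 3.11.15.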

Additional observations from a re-analysis of the deposited data

How the results depend on the processing

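The count of 0 brush border genes at least 2-fold higher was the same under all 11 alternatives. The count of 2 at least 2-fold lower was the same under 9 of them, was 3 after loess, when Anpep joined Alpi and Slc15a1, and was 1 with bounds at the 95th percentile of the negative controls, because the circPan3-/- value of Slc15a1 is under that limit. With bounds at the 90th percentile it was 2. Using no filter or the mean of all rows could change neither count, because all 10 genes passed the filter and each had 1 row. Relative to Vil1, the highest of the 10 as deposited, no gene could be higher. A stricter filter or bounds could not raise the count of 0 either. The median difference of -0.09 moved to -0.44 after centring on the named genes, -0.52 after loess, -0.38 after quantile normalization, -0.20 after centring on the spike-in rows and -0.41 relative to Vil1, and to 0.072 with a filter at the upper quartile, which left 8 of the 10 genes. It was the same with no filter and with the mean of all rows. Of the transcription factor list, 10 genes were at least 2-fold higher as deposited, 6 after centring or quantile normalization and 4 after loess. After loess, 1 of the other sugar, amino acid and peptide transporter genes was higher (2 as deposited), 2 of the other apical transporter genes were higher and 3 lower (3 and 2 as deposited), 8 lipid absorption genes were lower (6 as deposited), and 0 of the proximal and ileal genes were higher (1 as deposited). No paired analysis was possible because there is 1 array per genotype, and for the same reason no array could be left out. Weak signal limits Lct, Treh, Mep1a and Slc2a2, for which neither array gives a value over its control limit.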
